A study of Mus musculus with 10 samples.

Results

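M4 is 1 of 4 mouse mammary tumour cell lines, M1 to M4, that the labels call mesenchymal and that were grown from relapsed tumours. The comparison set the 2 arrays of M4 against the 6 arrays of M1, M2 and M3, which is 8 of the 10 arrays of the study. The other 2 arrays were of line E, an epithelial line whose source, a mammary adenocarcinoma, had arisen without induction in a female FVB/N-TgN(MMTVneu)202Mul mouse, a strain that carries the neu proto-oncogene under the MMTV promoter. All 4 M lines came from tumours that arose in female FVB/N mice after E cells had been injected, so they share their parent cells, and no other genetic change or treatment is named. All lines were grown in RPMI with 10% FBS to 80% confluence in 10 cm dishes. Line E is given below for reference only and was no term of the comparison.

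M4 is 1 line, so a difference between M4 and the other lines is a difference between cultures and not between 2 kinds of tumour. No label says that paired arrays were made from separate dishes, so the p-values below measure only how far 2 arrays of 1 line lay apart, and that may be technical.

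As background, epithelial tumour cells can take on a mesenchymal state in which they lose cell-cell junctions and make the fibrillar collagens, proteoglycans and matrix enzymes of connective tissue. Tumours driven by neu (Erbb2) in the mouse mammary gland can relapse as such spindle-shaped tumours. Lines grown from separate relapses may settle on different secretory programs, and the question here was what M4 expressed more or less than its 3 sister lines.

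3 transcripts, U90926, Thbs2 and Ifitm1, were known as marks of M4 when the comparison was chosen, so that their differences are no independent evidence. U90926 is a mouse transcript of little known function that is induced in stimulated macrophages. Thbs2 encodes thrombospondin-2, a secreted matricellular protein that restrains angiogenesis. Ifitm1 encodes an interferon-inducible transmembrane protein that restricts virus entry. Their promoter windows are shown because these transcripts had the 3 largest upward differences of M4. The windows run from 250 bases before to 50 after the RefSeq transcription start of mouse build GRCm38.p6, 5′ to 3′ along the gene: U90926 at chr5:92215359-92215658 on the minus strand, Thbs2 at chr17:14694213-14694512 on the minus strand and Ifitm1 at chr7:140967826-140968125 on the plus strand. Capitals mark matches, on either strand, to the CCAAT box (CCAAT), the C/EBP core (TTGCAA) or the TATA box (TATAAA).
U90926: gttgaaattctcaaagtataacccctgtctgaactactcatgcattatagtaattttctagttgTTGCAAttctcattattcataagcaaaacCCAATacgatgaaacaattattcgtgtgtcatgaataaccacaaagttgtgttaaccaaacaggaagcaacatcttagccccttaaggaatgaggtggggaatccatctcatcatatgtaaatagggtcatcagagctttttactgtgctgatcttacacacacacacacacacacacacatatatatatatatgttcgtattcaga
Thbs2: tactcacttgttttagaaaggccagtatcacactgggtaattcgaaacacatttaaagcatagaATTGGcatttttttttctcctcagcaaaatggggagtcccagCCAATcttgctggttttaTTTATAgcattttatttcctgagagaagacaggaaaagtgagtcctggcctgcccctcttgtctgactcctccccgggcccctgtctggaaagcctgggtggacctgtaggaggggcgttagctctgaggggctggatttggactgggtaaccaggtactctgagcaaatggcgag
Ifitm1: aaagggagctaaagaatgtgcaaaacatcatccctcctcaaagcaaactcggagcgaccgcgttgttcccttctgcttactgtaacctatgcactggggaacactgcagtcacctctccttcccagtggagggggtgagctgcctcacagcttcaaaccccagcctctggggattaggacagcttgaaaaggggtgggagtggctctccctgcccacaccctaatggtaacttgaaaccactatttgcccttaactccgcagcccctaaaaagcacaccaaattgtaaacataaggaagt
The U90926 window held TTGCAA and CCAAT, the Thbs2 window held CCAAT at 2 places and TATAAA, and the Ifitm1 window held no match to any of 7 motifs searched. CCAAT occurred in 37.4% of the 32851 windows of the table, TATAAA in 13.6% and TTGCAA in 6.23%. The other motifs were the AP-1 site (TGANTCA, 7.81% of windows), the STAT site (TTCNNNGAA, 8.3%), the core of the interferon-stimulated response element (3.44%) and the NF-kB site (1.63%). The CCAAT match of U90926 does not overlap its TTGCAA match. A match is only a description of the letters in the window.

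The values are probe set signals, in arbitrary units of intensity, and a log2 difference is always M4 minus the average of the M1, M2 and M3 means of log2(signal + 32) after quantile normalization. Across probe sets, paired arrays of the same line had correlations of 0.992 to 0.993, and M4 arrays correlated with those of the other M lines at 0.957 to 0.976. The M4 arrays were the dimmest of the 10 before normalization, with trimmed mean signals of 182 and 191 against 200 to 273 for the other M lines. The Actb 3′ to 5′ signal ratio was 1.25 and 1.22 in M4 and 1.16 to 1.38 in the other M lines. Most markers followed the label, but Krt8 did not and Vim (vimentin) did so only in part. Vim was at 13479.5 and 13427 in M4 and 8839 and 8676 in E. M1 and M2 also lay above E, but M3, at 8069 and 7928, lay below it. S100a4, a calcium-binding protein, was at 12692 and 12486 in M4 and 8.95 and 8.15 in E, while Krt18, a simple-epithelial keratin, was at 3.55 and 7.51 in M4 and 11677 and 11714 in E. Cdh1 (E-cadherin) was at 0.71 and 11.7 in M4 against 3162 and 2914 in E, and all probe sets of the claudin genes Cldn3 and Cldn7 were at 7.51 or less in M4 and at 4584 or more in E. Krt8, also a simple-epithelial keratin, was at 5588 and 5323 in M4, near the 7469 and 6978 of E.

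Of 14361 genes tested, 665 (4.63%) were called in M4 against the other M lines, 356 higher (2.48%) and 309 lower (2.15%). Of the genes tested, 500 passed the filter on dim probe sets only through the M4 arrays and so could hardly be lower in M4, among them 30 of the 356. A gene was called when its limma adjusted p was under 0.05 and its difference was at least 2-fold. M4 was called higher than each of M1, M2 and M3 taken singly in 157 genes (1.09%) and lower than each in 89 (0.62%), together 1.71% of the genes. The single comparisons share the M4 arrays; 901 genes were called against M1 (6.27%), 609 against M2 (4.24%) and 1556 against M3 (10.8%). For 190 genes (1.32%) both M4 arrays lay outside the 6 other arrays by at least 2-fold, 120 above (0.836%) and 70 below (0.487%). On adjusted p alone, with no fold minimum, 6773 genes (47.2%) would have passed. The split of calls depended on the scaling: under the deposited scaling it was 226 higher and 588 lower, and with each array centred on its median 252 and 492, where the median of all genes was -0.17 and -0.10 in place of 0.01.

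**Figure D1:**
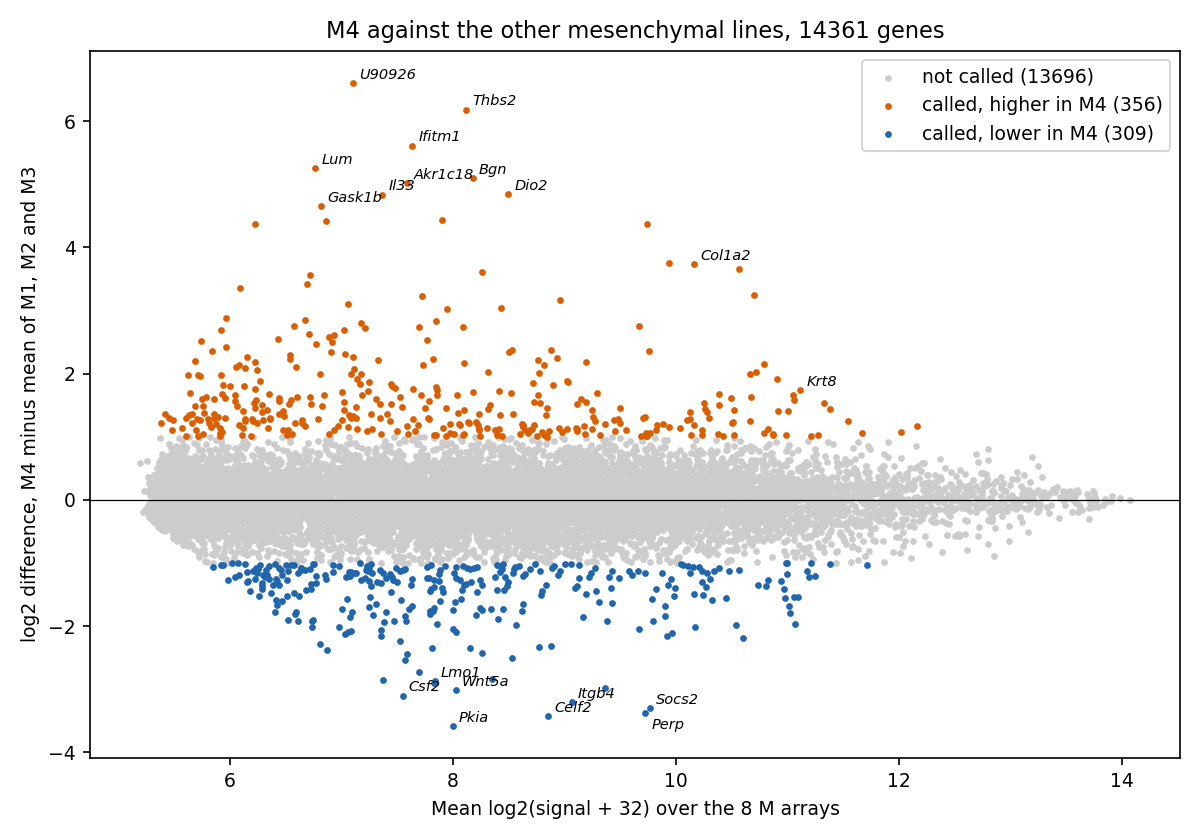
Log2 difference of M4 from the mean of M1, M2 and M3 (vertical axis) against the mean log2(signal + 32) over the 8 M arrays (horizontal axis), 1 point per gene, with the 356 genes called higher in orange and the 309 called lower in blue. The largest differences upward, led by U90926 at 6.60, are greater in size than the largest downward, led by Pkia at -3.58.

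When the lines and not the arrays were taken as replicates, limma on 4 line means called 11 genes (0.0766%). M4 is then 1 sample, whose spread is assumed to be that of the 3 other lines. They were U90926, Lum, Cox7b2, Gask1b, Dio2, Lpl, Nlrp4e, Nrn1, Slc38a4, Ptx3 and Ccr1. All were higher, but Cox7b2, Lpl, Nlrp4e, Slc38a4 and Ccr1 passed the filter only through the M4 arrays, where they are high, and in genes near 0 in M1, M2 and M3 the added 32 leaves almost no spread between lines. The count was 3 with no filter, and neither it nor its direction is support for a gene. At an unadjusted p under 0.05 this fit had 424 genes higher and 336 lower. For comparison, the array-level fit called 638 genes (4.44%) in M1 against the other 3 M lines, 283 (1.97%) in M2 and 976 (6.8%) in M3.

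U90926 was at 4225 on both M4 arrays, where it held the same rank. It was at 5 and 19.6 in M1, 8.48 and 38.5 in M2 and 4.31 and 3.39 in M3, with 3.34 and 4.31 in E. M4 stood alone, and the other 8 arrays were at 38.5 or less. The log2 difference was 6.60 ± 0.18 (SE, limma adjusted p = 2.02e-11, adjusted p = 0.0182 on line means). Because the other lines were near 0, its size depends on the pseudocount and was 7.29 with 16 and 5.81 with 64.

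Thbs2 was at 6860.4 and 6928 in M4. It was at 106 and 110.0 in M1, 126 and 123 in M2, 14.5 and 2 in M3 and 1.9 and 3.84 in E. The groups did not overlap, and the line nearest to M4 was M2. The difference was 6.18 ± 0.11 (limma adjusted p = 3.63e-13, adjusted p = 0.153 on line means), and 2 further probe sets gave 5.58 and 5.35.

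Ifitm1 was at 3726 and 3551 in M4. It was at 16.4 and 16.7 in M1, 121 and 133 in M2, 26.2 and 19.7 in M3 and 16.7 and 12.7 in E. Only M2 among the others had a signal over 100, and it was far below M4. The difference was 5.61 ± 0.09 (limma adjusted p = 2.35e-13, adjusted p = 0.137 on line means). Its neighbours in the family, Ifitm2 and Ifitm3, were at 4192 or more on all 10 arrays and were not called, with differences of 0.72 and 0.54.

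**Figure D2:**
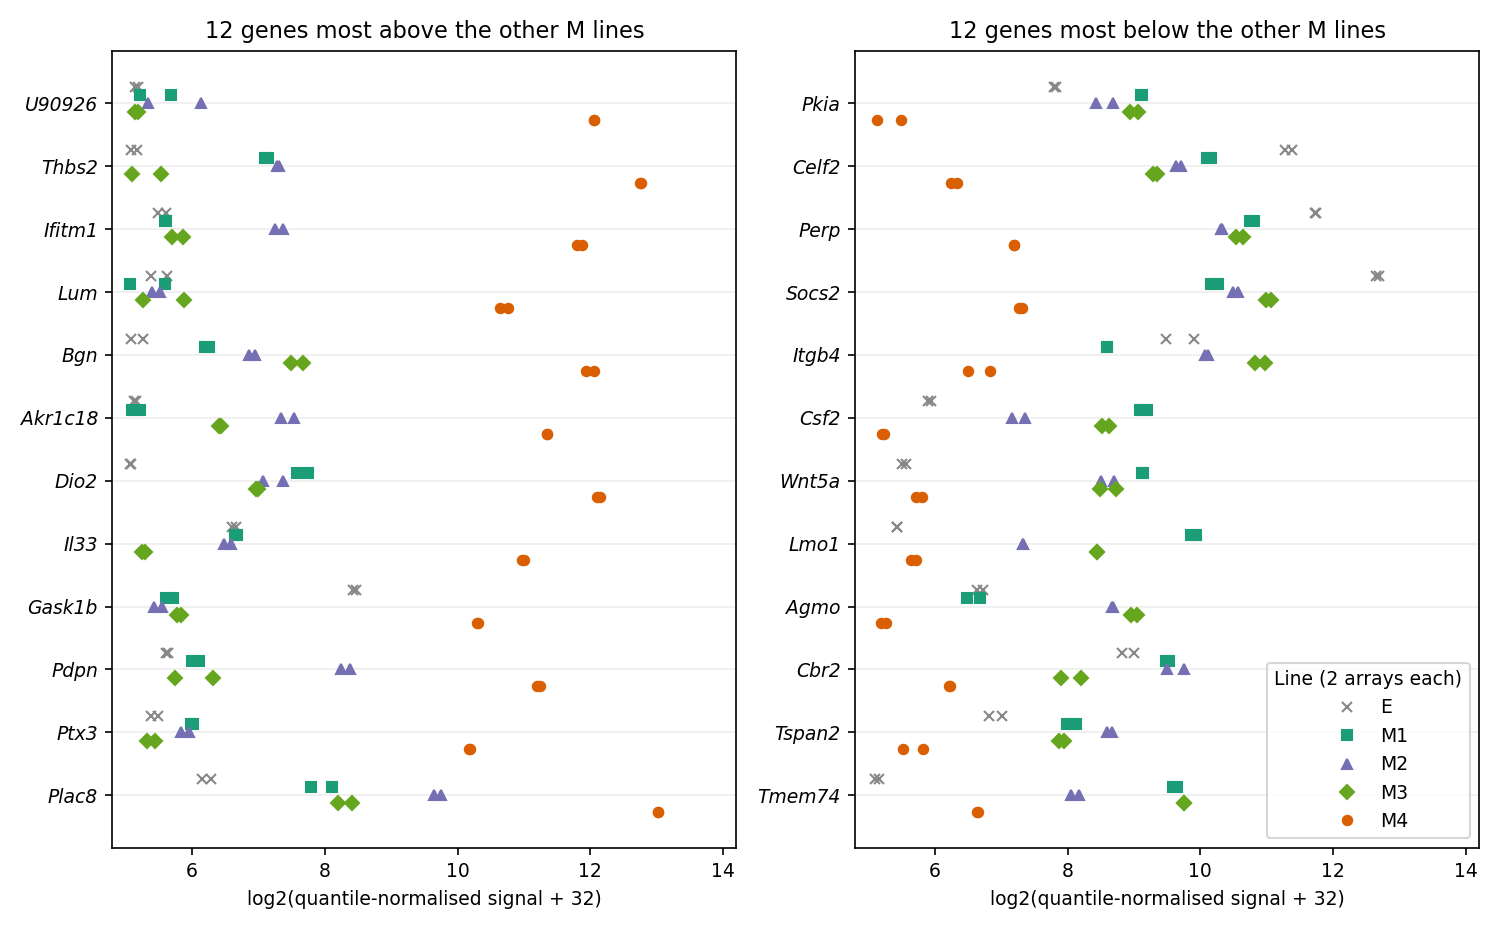
Each array's log2(quantile-normalised signal + 32) for the 12 genes most above (left) and the 12 most below (right) the other M lines, among genes called against each of M1, M2 and M3. Orange circles are the 2 M4 arrays, squares M1, triangles M2, diamonds M3 and crosses E; in all 24 genes both M4 arrays lie outside the 6 other M arrays.

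The other 9 of the 12 largest differences upward lay between 4.37 and 5.25. Lum, which encodes the collagen-binding proteoglycan lumican, was at 1569 and 1708 in M4 and 1.35 to 26.6 in the 6 others. Bgn (biglycan, a small proteoglycan of bone and connective tissue) was at 3895 and 4207 against 41.3 to 173. Both proteoglycan genes were far above the highest other array. Akr1c18, which encodes the enzyme that inactivates progesterone, was at 2573 and 2588 in M4, 5.2 and 2.07 in M1, 153 and 130.4 in M2 and 54.4 and 52.3 in M3. Dio2, the deiodinase that activates thyroid hormone, was at 4508 and 4380.4 against 92.2 to 183. Il33, an alarmin cytokine of the IL-1 family, was at 2029 and 1976 against 5.82 to 70.7. Each of these genes separated M4 from every other array. Pdpn (podoplanin, a membrane glycoprotein of lymphatic endothelium and of fibroblasts) was at 2323 and 2401 in M4, 271 and 300.0 in M2 and 21.3 to 47.9 in M1 and M3. The nearest line differed from gene to gene. Plac8, a small cysteine-rich protein, was at 8301 and 8257 against 190.0 to 828. Ptx3, a soluble pattern-recognition protein, was at 1136 and 1123 against 7.83 to 32.4 by the probe set used, while its other probe set differed by -0.43 and was not called. Gask1b, a Golgi-associated protein, was at 1227 and 1238 against 11.1 to 25.3 and was the 1 gene of these 12 for which E, at 321 and 313, was nearer to M4 than to the other M lines. Their adjusted p on line means ran from 0.0182 to 0.48.

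The matrix genes set M4 apart in both directions. The list of fibrillar and some other collagens, elastin, small proteoglycans and cross-linking enzymes had 24 tested genes. Of these, 9 were higher in M4 and 3 lower, against 2.48% and 2.15% of all genes. The list's median difference was 0.26, and -0.00 under the deposited scaling. Its summed signal was 48886 to 49275 on the M4 arrays, 24973 to 32661 on the other M arrays and 2726 to 2808 in E. The shares of 2.48% and 2.15% are the background for the called counts of every list below. List counts at an unadjusted p under 0.05 (limma) have another background. In this contrast 3782 of the 14361 genes were higher and 3737 lower at that threshold. Some of the genes that were higher were as high in M1.

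Col3a1, which encodes type III collagen, was at 6848 and 6883 in M4. It was at 861 and 816 in M1, 1314 and 1267 in M2 and 86 and 85.1 in M3. M4 was highest and M3 lowest, and the difference was 3.75 ± 0.05 (limma adjusted p = 7.09e-14). Col1a2, the second chain of type I collagen, was at 8177 and 7706 in M4, 8591 and 8676 in M1, 143 and 148 in M2 and 103 and 115 in M3. M4 and M1 both had high Col1a2, so that its mean difference of 3.73 came from M2 and M3: M4 differed from M1 by -0.12, from M2 by 5.49 and from M3 by 5.82. Col1a1, the first chain, was at 1498 and 1469 in M4, 1191 and 1085 in M1, 661 and 677 in M2 and 88.9 and 99.3 in M3, with a difference of 1.69 that was 0.74 and not called without M3 and 0.98 by its other probe set. The other probe sets of Col1a2 gave 3.37 and 0.43. Col6a3 also was alike in M4 and M1, with 0.05 against M1, 1.96 against M2 and 3.42 against M3.

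Col5a1, a regulatory chain of type V collagen, was higher in M4 than in each other line, at 1172 and 1251 against 191 to 396 (2.01 ± 0.08). Col5a2 differed by 1.67, and by 0.96 from M1. Col12a1 was faint everywhere, at 118 and 104 in M4 and 8.06 to 53.7 elsewhere. The 3 members that were lower were lower than in each of the other lines. Ogn (osteoglycin, a small leucine-rich proteoglycan) was at 314 and 290.3 in M4 against 1124 to 1748 (-2.11 ± 0.06). Col8a1, a short-chain network collagen, was at 876 and 859 against 2490.5 to 2791 (-1.56 ± 0.05). Loxl4, a lysyl-oxidase-like cross-linking enzyme, differed by -1.30. The list thus held genes that differed in both directions.

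**Figure D3:**
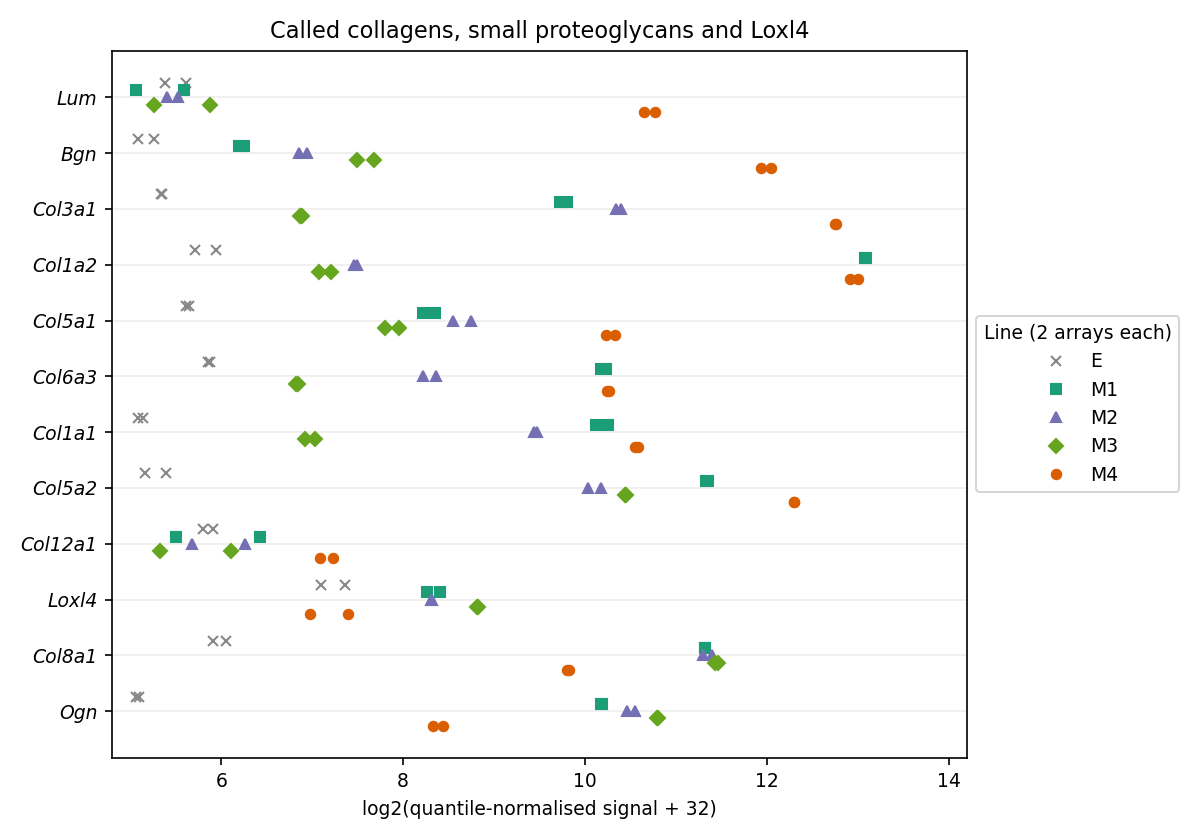
Each array's log2(quantile-normalised signal + 32) for the 12 called genes of fibrillar and other collagens, small proteoglycans and cross-linking enzymes, with symbols for the lines as in the key. M4 (orange circles) lies above the 6 other M arrays for Lum, Bgn, Col3a1, Col5a1, Col5a2, Col1a1 and Col12a1. It lies next to M1 for Col1a2 and Col6a3, and below the other M arrays for Ogn, Col8a1 and Loxl4.

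Matricellular proteins are secreted modulators that do not form fibres. Of 22 tested genes for matricellular proteins and other matrix glycoproteins, 3 were higher, all of them thrombospondins. Beside Thbs2, Thbs1 was at 2642 and 2499.6 in M4 against 564 to 1634 (1.44 ± 0.05), and Thbs3 differed by 1.12. The 3 that were lower depended on the line. Ccn2 (CTGF) was at 100.4 and 110.0 in M4, 794 and 752 in M1, 345 and 310.4 in M2 and 82.4 and 90.6 in M3, so M4 was close to M3 and below the others, and Ccn1 had the same order with -1.75 against M1, -1.31 against M2 and 0.06 against M3. Efemp1 (fibulin-3) rested on 1 line: it was at 4529.8 and 4040.0 in M1, 21.3 and 5.8 in M4 and 5.69 to 14.8 in M2 and M3, and without M1 its difference of -2.10 became 0.15. The call of Ccn2 also was lost without M1, at -0.59.

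Among 28 proteases and inhibitors 4 were higher and 2 lower. Mmp2 (gelatinase A) was at 3200.1 and 3104 in M4 against 853 to 1077 (1.67 ± 0.05, limma adjusted p = 1.81e-11), and Mmp9 (gelatinase B) went the other way, at 25.1 and 55.7 against 172 to 297 (-1.91 ± 0.17). The gelatinases thus had opposite orders. Mmp3 (stromelysin-1) was at 4843 and 4779 in M4 but at 6139 and 6253 in M2, and differed by 2.65 from M1 and 3.80 from M3. Ctsk (cathepsin K) differed by 1.24. The inhibitors diverged as well: Timp3 was at 381 and 209.9 in M4 against 1134 to 1611 (-2.16 ± 0.14), and Timp1 was higher by 1.02, mostly against M3 (1.95).

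Itgb4, the beta-4 integrin of hemidesmosomes, was at 58.9 and 81.4 in M4, 353 and 355 in M1, 1046 and 1082 in M2, 1783 and 1986 in M3 and 682 and 926 in E. M4 was below every other array (-3.20 ± 0.10, limma adjusted p = 8.09e-11), and Itgb4 was the 1 integrin called of 16 (6.25%, near the 4.63% of all genes). Of 17 basement membrane collagens and laminins 2 were called, both lower: Col18a1, at 736 and 746 against 1579.8 to 4456 (-1.97 ± 0.04), and Lamb3, a chain of laminin-332, which was faint in all M lines (-1.26). Lamb3 was not called without M2 (-0.84) or with signals below 64 set to 64 (-0.40). Mylk, the myosin light chain kinase, was the 1 called of 18 contractile genes (5.56%, likewise near the share of all genes), at 135 and 137 against 379.7 to 631 (-1.64), and its 2 other probe sets differed by -0.36 and -1.64.

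Of 21 tested keratin and junction genes 4 were lower and 1 higher, and 2 of these calls rested on M1. The desmosomal plakophilin Pkp2 was at 60.7 and 48.5 in M4 against 174 to 582 (-1.81 ± 0.08; other probe sets -1.59 and 0.06), Pkp1 differed by -1.59, and Cldn1 (claudin-1) was at 1.57 and 2.02 against 36.7 to 203 (-1.77; other probe set -0.64). With signals below 64 set to 64, Pkp1 (-0.57) and Cldn1 (-0.53) were not called. Krt8, a simple-epithelial keratin, was at 5588 and 5323 in M4, 46.7 and 67.4 in M1, 8318 and 7682 in M2, 6238 and 6208 in M3 and 7469 and 6978 in E. M1 was the odd line, and the call of 1.74 became -0.37 without it. Krt18, the usual partner of Krt8, was at 512 and 532 in M1 and 3.55 to 20.9 in the other M lines, and its call of -1.42 was -0.19 without M1. Perp, a desmosomal and p53-regulated membrane protein, was at 115 and 115 in M4, 1695 and 1770.4 in M1, 1241 and 1253 in M2, 1462 and 1574 in M3 and 3377 and 3415 in E. M4 was the line with the lowest Perp by far (-3.37 ± 0.04, limma adjusted p = 7.09e-14, adjusted p = 0.0937 on line means).

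Of the fixed mesenchymal genes, Snai2 was called higher (1.54) and Cdh2 lower (-1.35), and the others were not called. Vim (vimentin) differed by 0.16, Fn1 (fibronectin) by 0.59, S100a4 by 0.06, Cd44 by -0.30, Zeb1 by -0.57, Zeb2 by 0.09, Twist1 by 0.42 and Snai1 by -0.03. Erbb2, the endogenous counterpart of the transgene, differed by 0.18 ± 0.10, Cdh1 by -0.96 and Epcam by 0.12, again without a call. The Epcam probe set used was a weak one (341 and 405 in E), and its stronger probe set was at 9622 and 9391 in E and at most 4.77 in the M lines. Cdh2 (N-cadherin) was at 489.9 and 412 in M4 and 1081 to 1557 in the others, a difference of -1.35 ± 0.07.

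Of 16 EMT transcription factors 3 were called, all higher in M4; at an unadjusted p under 0.05, 6 were higher and 5 lower. Twist2 was at 3853 and 3722 in M4, 792 and 874 in M1, 1896 and 2095 in M2 and 1049 and 1036 in M3 (1.63 ± 0.12). Snai2 (Slug) was at 2715 and 2671 against 547 to 1404 (1.54), and Prrx1 at 2086 and 2097 against 700.5 to 1109.8 (1.27, or 0.98 and not called under the deposited scaling; other probe sets 1.06, 1.32, 1.29 and 0.54). For all 3, M4 lay above each of the other arrays.

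Of 16 tested markers of stromal fibroblasts 6 were higher and 1 lower, with a median difference of 0.52. Their summed signal was 47799 to 48545 in M4, 29496 to 39244 in the other M lines and 357 to 401 in E. Lum, Col1a1 and Col1a2, which the collagen list also holds, were among them, with Pdgfra (1.62), the fibril-associated Mfap5 (1.46) and the hyaluronan synthase Has2 (1.30), while Pi16 was lower (-1.08) and differed by 0.33 from M1. Thy1, another fibroblast marker, was at 22.5 and 15.9 in M4 and 4.13 to 18.1 in the others. Whether host fibroblasts in the culture had a part in these values was not tested, and in any bulk sample fewer cells and less RNA per cell cannot be told apart.

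**Figure D4:**
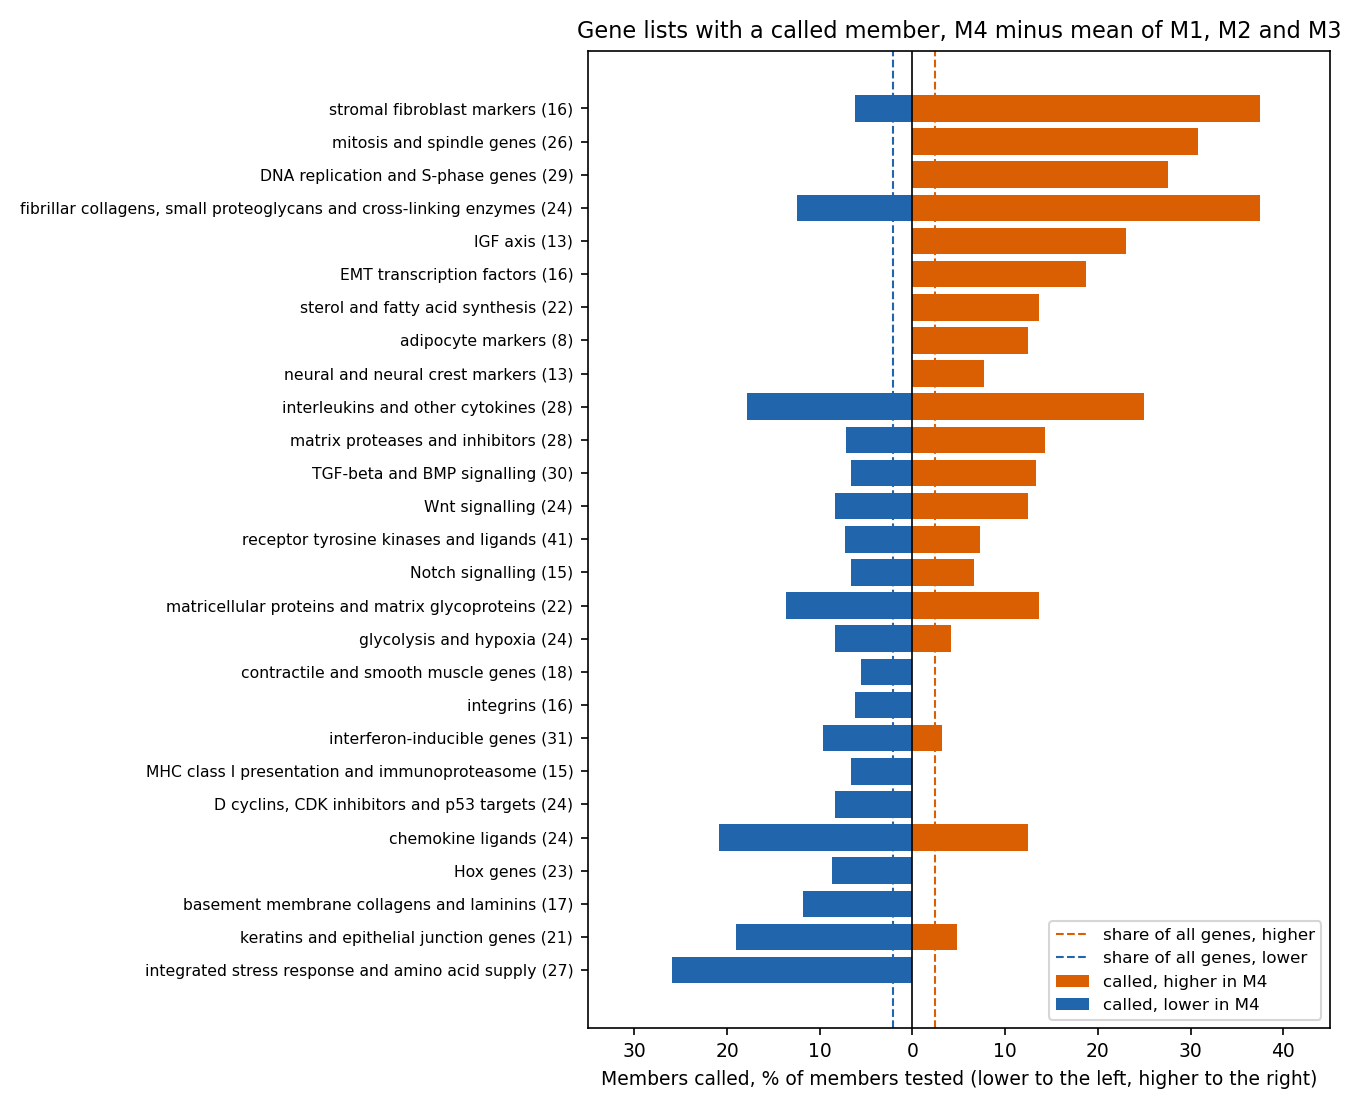
Share of tested members (number in brackets) called higher in M4 (orange, to the right) or lower (blue, to the left) for the 27 of 32 gene lists with a called member, in percent; dashed lines are the shares of all genes, 2.48% and 2.15%. Collagens and fibroblast markers lead to the right, and genes of the integrated stress response lie furthest to the left.

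Secreted signals differed in both directions. Of 28 interleukin and cytokine genes, including receptors and effectors, 7 were higher and 5 lower, and of 24 chemokines 3 were higher and 5 lower. Il6 was at 425 and 414 in M4, 17.4 and 23.7 in M1, 37 and 34.1 in M2, 104 and 79.1 in M3 and 14.6 and 15.7 in E. M4 was the only line above 200 (2.57 ± 0.11, limma adjusted p = 1.57e-09, adjusted p = 0.379 on line means). Osmr, the oncostatin M receptor, was at 1528 and 1572 against 184 to 452 (2.25 ± 0.07). In the IL-1 system, beside Il33, higher levels were found for the antagonist Il1rn (2.26) and the receptor Il1r1 (1.87), and so was Ptges, the prostaglandin E synthase (2.22). The ligand Tnfsf9 was higher by 1.19.

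Csf2 (GM-CSF), which drives myeloid cells, went the opposite way to Il6. It was at 5.76 and 4.96 in M4, 512 and 555 in M1, 133 and 111 in M2, 336 and 361 in M3 and 29.4 and 27.6 in E. M4 was near the floor in both arrays and below all other lines, E included (-3.10 ± 0.09, limma adjusted p = 4.65e-11). Socs2, a feedback inhibitor of STAT5 signalling, was at 122 and 127 in M4 against 1111 to 2105, with 6403 and 6602 in E (-3.30 ± 0.05). Its 4 other probe sets differed by -2.98, -1.72, -0.25 and -0.96. Il34, a ligand of the CSF-1 receptor, and the lymphoid growth factors Il7 and Il15 were lower too, with differences of -1.43, -1.08 and -1.02.

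Among chemokines, Ccl11 (eotaxin) was at 159.7 and 166 in M4 and 0.7 to 24.7 in the others (2.36 ± 0.16), and it passed the filter only through the M4 arrays. Ccl8 and Ccl7, its neighbours in the same gene cluster, were higher by 1.81 and 1.06, but M2 differed from M4 by less (0.70 and 0.26 on the log2 scale). Cx3cl1 (fractalkine) was lower, at 269 and 324 against 881 to 2093 (-1.92 ± 0.06). Its 3 other probe sets differed by -1.44, 0.03 and -0.55, and the average of all 4 was -0.97 and not called. Cxcl16 (-1.50) and Cxcl11 (-1.40) were low in M4 and M1 alike, and Ccl5 differed by -1.24. Ccl20 was at 692 and 573 in M3 and at most 8.55 in the other M lines, and its call (-1.53) became -0.17 without M3.

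In TGF-beta and BMP signalling 4 of 30 genes were higher and 2 lower. The ligand gene Bmp4 was at 1271 and 1050.4 in M4, 17.2 and 14.6 in M1, 287 and 264 in M2 and 171 and 194 in M3 (3.02 ± 0.12, limma adjusted p = 7.28e-10). The transcription factor gene Id1, a classic BMP target, was at 2940.2 and 2913 in M4, 481 and 524 in M1, 1254 and 1074 in M2, 269 and 264 in M3 and 5582 and 5558 in E (2.36 ± 0.06). Ligand and target were both highest in M4 among the M lines and ran in different orders in the others. Line E had the highest Id1 of all lines with Bmp4 at only 2.92 and 16.45. Fst (follistatin, which binds activin and some BMPs) was at 3353 and 3383 against 208 to 922 (2.75 ± 0.06). Id2 was higher by 1.42 but differed from M2 by only 0.18. Id4 was lower, at 100.3 and 106 against 195 to 1009.5 (-1.99), and the inhibitory Smad7 had a difference of -1.05. Tgfb1 and Tgfbr2 differed by 0.15 and 0.17 and were not called.

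Of 13 IGF axis genes 3 were called, all higher, and the median difference was 0.16; at an unadjusted p under 0.05 7 were higher and 2 lower. Igf1 was at 259 and 329.6 in M4 and 8.19 to 37.9 in the others (2.55 ± 0.17). Irs1, an adaptor of the IGF-1 receptor, was at 1228 and 1161 in M4, 355 and 327 in M1, 231 and 214 in M2, 128 and 106 in M3 and 2809 and 2945 in E (2.34 ± 0.07). Igfbp7 differed by 1.59, or 0.98 and not called without M3, and 0.16 by its other probe set. Of 41 receptor tyrosine kinases and ligands 3 were higher and 3 lower, 7.32% each, against 2.48% and 2.15% of all genes.

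Hgf, the ligand of Met, was at 408 and 416 in M4 against 29.2 to 70.5 (2.50 ± 0.10). Pdgfra was at 3651 and 3001 against 730.4 to 1796. Its ligand gene Pdgfc was at 968 and 975 in M4 and 525 and 518 in M1, but at 20.9 to 60.8 in M2 and M3 (2.83 ± 0.07). Ligand and receptor were thus both highest in M4, with M1 next for the ligand. Vegfc, the lymphangiogenic growth factor, was lower, at 52.6 and 104 against 179.6 to 378 (-1.41), as were Epha2 (-1.20) and Efnb2 (-1.13).

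Of 24 Wnt genes 3 were higher and 2 lower, and 2 ligands differed in opposite directions. Wnt5a, a non-canonical ligand, was at 20.7 and 24 in M4, 525 and 529 in M1, 382 and 331 in M2, 326 and 391 in M3 and 13.3 and 15.3 in E. M4 was near the level of E and apart from its sister lines (-3.01 ± 0.09, limma adjusted p = 5.71e-11). Its 3 other probe sets differed by -1.70, -2.71 and -0.06, and the average of all 4 was -1.87. Ror1, a receptor for Wnt5a, was also lower, at 17.2 and 21.9 against 116 to 215 (-1.86 ± 0.10), though 2 other Ror1 probe sets gave -0.50 and -0.62 and their average with it was not called. Wnt10a was higher, at 701 and 656 against 63.1 to 335 (1.72 ± 0.09). The receptor genes Fzd2 and Fzd7 were higher by 1.12 and 1.08, and Fzd2 was not called under the deposited scaling (0.84) or without M3 (0.77).

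Of 15 Notch genes Jag1 was lower (-1.16) and Hes1 higher (1.11). Both calls were near the fold minimum and were lost when M4 replicate 2 was left out, at -0.97 and 0.96, and without M3, at -0.99 and 0.95. Hes1 was also lost under the deposited scaling (0.84) and with median centring. The 2 other probe sets of Jag1 differed by -0.08 and -0.26, and the average of all 3 was -0.50 and not called. Of 23 Hox genes Hoxb9 and Hoxb5 were called, both lower. Hoxb9 was at 3.12 and 4.86 in M4, 226 and 193 in M1, 29.9 and 32.4 in M2 and 69.8 and 64.1 in M3 (-1.67), and Hoxb5 was at 4.41 and 3.94 against 38.9 to 86 (-1.31). With signals below 64 set to 64 these differences were -0.59 and -0.13 and were not called.

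Most interferon-inducible genes did not follow Ifitm1, although the summed signal of the list was highest in M4. Of 31 tested, Ifitm1 was the 1 called higher (3.23%, near the 2.48% of all genes) and 3 were called lower (9.68%, against 2.15%). The list's median difference was -0.18, and at an unadjusted p under 0.05 (limma) 5 were higher and 14 lower. Its summed signal was 33719.5 to 34604 on the M4 arrays and 21917 to 29689 on the other M arrays. Bst2 (tetherin) was at 447 and 471 in M4, 613 and 687 in M1, 1423 and 1327 in M2 and 2341 and 2138 in M3. M4 was lowest, M1 was close to it (-0.47) and the call of -1.40 was -0.99 and lost without M3. Ifit3 was at 41 and 39.9 against 86 to 196 (-1.20), and Isg20 at 103 and 135 against 165 to 354 (-1.07). Isg20 was -0.92 and not called without M4 replicate 1, and likewise -0.92 without M1 and -0.93 without M2. With a pseudocount of 64 both Ifit3 (-0.93) and Isg20 (-0.93) lost their call.

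Of 15 genes of MHC class I presentation 1 was called, and it was lower (6.67%, near the 4.63% of all genes). Nlrc5, the transactivator of class I genes, was at 23.2 and 34.3 in M4, 30.6 and 36.2 in M1, 129 and 123 in M2 and 258 and 259.6 in M3 (-1.25, or -0.76 and not called without M3). Its call was also lost with a pseudocount of 64 (-0.97) and with signals below 64 set to 64 (-0.998). B2m was at 6942 and 7018 against 7809 to 12191, a difference of -0.51 that misses the 2-fold minimum, and H2-K1 and H2-D1 differed by -0.33 and -0.27. The median of the 15 tested genes was -0.39, against 0.01 for all genes, and was -0.14 against M1, -0.27 against M2 and -0.62 against M3.

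The remaining genes furthest below the other lines were of varied function. Pkia, the inhibitor of protein kinase A, was at 3.12 and 13.1 in M4 against 312 to 527 (-3.58 ± 0.10, limma adjusted p = 2.82e-11, adjusted p = 0.0972 on line means). Celf2, a regulator of splicing, was at 48.9 and 43.4 against 596 to 1115, and at 2628 and 2452 in E (-3.42 ± 0.06). In both cases every other line, E included, lay above M4. Lmo1, a transcriptional co-regulator, was at 20.4 and 18.1 in M4, 901 and 947 in M1, 128 and 129 in M2 and 315 and 315 in M3. Agmo, the monooxygenase that cleaves ether lipids, was at 6.59 and 4.41 against 376 to 499 in M2 and M3 and 70.2 and 57.1 in M1. In both genes M4 was lowest among the M lines and M1 to M3 differed widely. Cbr2, a carbonyl reductase, was at 42.4 and 43 against 207 to 828. The last of the 12 were the tetraspanin Tspan2 (-2.53) and Tmem74 (-2.51), a transmembrane protein. E was nearer to M4 than to the other M lines for 5 of the 12. Adjusted p on line means ran from 0.0937 to 0.852 over the 12, so the fit to line means called none of them.

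Cell-cycle genes were higher in M4 than in the average of the other lines, but this rested on M3. Of 29 genes of DNA replication and S phase 8 were higher, and of 26 genes of mitosis 8 were higher, with medians of 0.62 and 0.88. At an unadjusted p under 0.05 (limma), 28 replication genes were higher and 1 lower, and 25 mitosis genes were higher and none lower. Against M1 the medians were 0.00 and -0.06, against M2 0.20 and 0.14, and against M3 1.81 and 2.39. Without M3 neither list had a call, and at an unadjusted p under 0.05 the replication genes had 13 higher and 6 lower and the mitosis genes 9 and 7 (limma). All genes were not counted at that threshold without M3, so these unadjusted counts have no background here. Birc5 (survivin) shows the pattern, at 3094 and 3083 in M4, 3125 and 2989 in M1, 2799 and 2910.5 in M2 and 217 and 222 in M3. Rrm2, a subunit of ribonucleotide reductase, was at 5554 and 5593 in M4, 3922 and 4078 in M1, 4590.4 and 4747 in M2 and 444 and 439 in M3. Of the mitosis genes 25 were called higher against M3, none against M1 and none against M2, and of the replication genes 26, 1 and 0, where 5.56% of all genes were called higher against M3, 3.31% against M1 and 1.99% against M2. The 1 was Ccne1 (cyclin E1), with 1.05 against M1, 0.77 against M2 and 2.82 against M3.

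**Figure D5:**
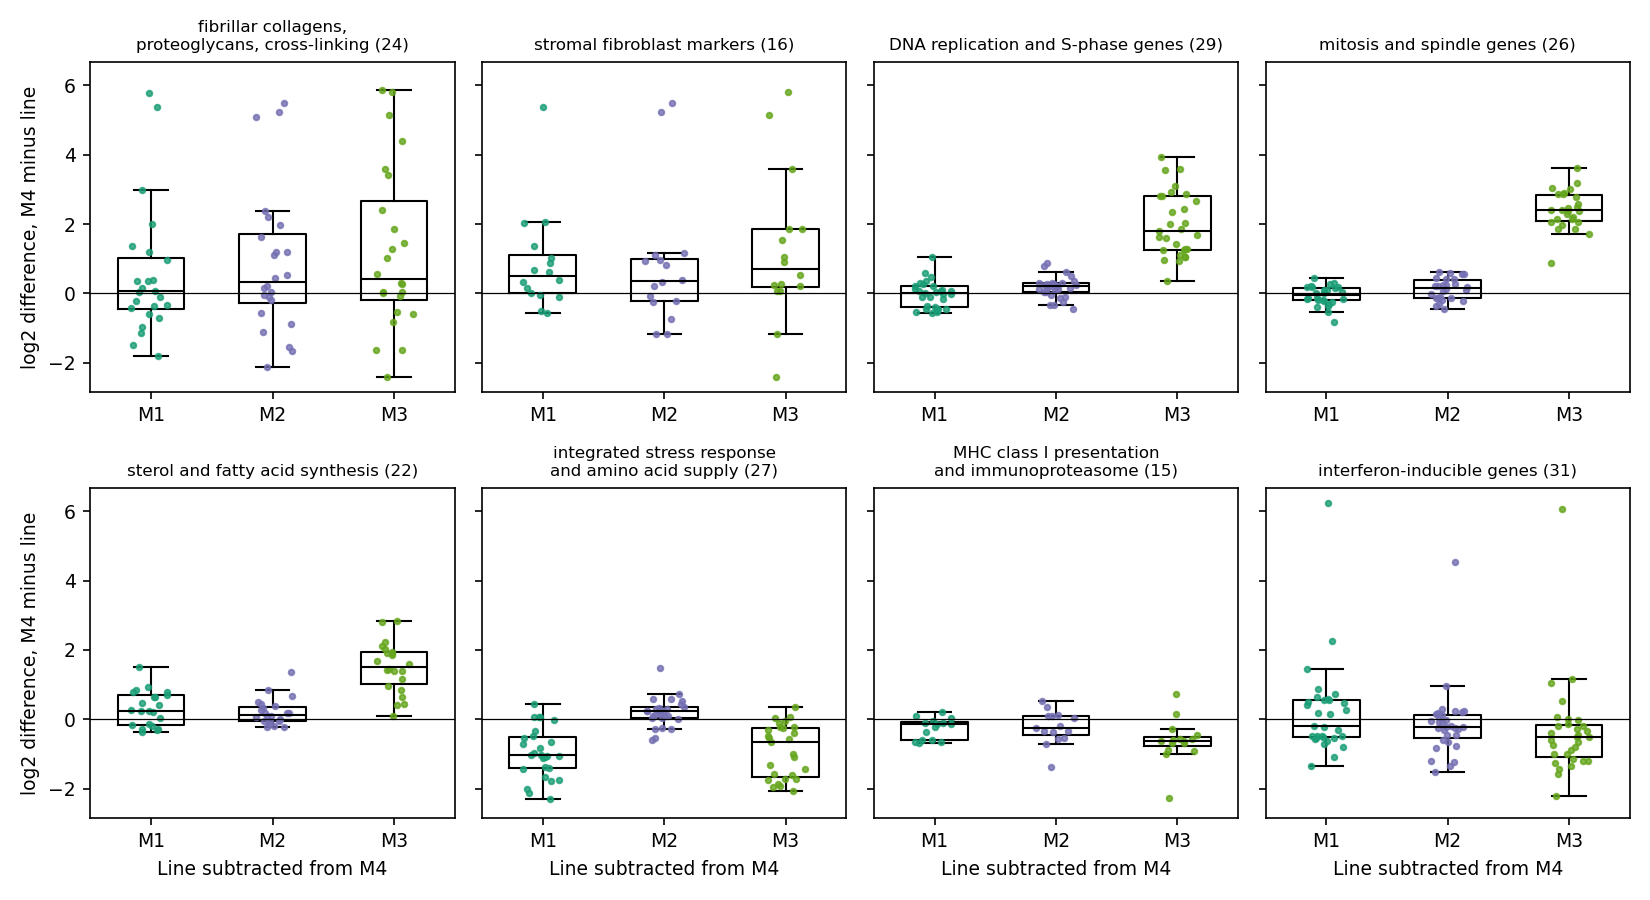
Log2 differences of M4 from M1, M2 and M3 for the tested genes of 8 lists (1 point per gene; boxes give the median and quartiles, and whiskers reach the furthest gene within 1.5 times the box height). Most replication, mitosis and sterol genes lie well above 0 against M3 (medians 1.81, 2.39 and 1.52) and near 0 against M1 and M2, and the median of the stress response genes is below 0 against M1 and M3 but not M2.

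Sterol synthesis had the same dependence in part. Of 22 sterol and fatty acid genes 3 were higher, with a median of 0.68, and medians of 0.25 against M1, 0.13 against M2 and 1.52 against M3; at an unadjusted p under 0.05, 20 were higher. Dhcr7, which makes cholesterol from its last precursor, was the exception and was higher than in each line, at 1046 and 963 in M4, 329.6 and 335 in M1, 369 and 365 in M2 and 194 and 219 in M3 (1.67 ± 0.06). Cyp51 (1.50) and Fdft1 (1.07) were 0.84 and 0.48 without M3 and not called.

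In the integrated stress response ATF4 raises genes of amino acid supply. Of 27 genes listed for this response and for amino acid supply, not all of them targets of ATF4, 7 were lower. The median was -0.51, with -1.03 against M1, 0.23 against M2 and -0.65 against M3. Chac1, a glutathione-degrading enzyme, was at 573 and 584 in M4, 2424 and 2437 in M1, 548 and 606 in M2 and 2279.5 and 2279 in M3. Nupr1, a stress-induced nuclear protein, was at 578 and 604 in M4, 2629 and 2759.8 in M1, 926 and 887 in M2 and 2438 and 2305 in M3. Herpud1, a factor of endoplasmic reticulum protein disposal, differed by -1.79, -0.53 and -1.75 from M1, M2 and M3. For each of these 3 genes M4 was closer to M2 than to M1 or M3. Slc1a4, Slc7a5, Psph and Trib3 made up the 7, with differences of -1.17, -1.17, -1.01 and -1.13. Without M1 there were 2 calls in the list, without M2 11 and without M3 3, and Chac1 (-0.95 without M1, -0.998 without M3) and Slc1a4 (-0.92 and -0.96) were among those lost.

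Gadd45a, a growth-arrest gene induced by p53 and by stress, had the same pairing, at 168 and 209.7 in M4, 1138 and 1189.8 in M1, 172 and 161 in M2 and 2165 and 1991 in M3. It and Perp were the 2 called of 24 D cyclins, CDK inhibitors and p53 targets. Of 24 glycolysis and hypoxia genes Egln3, an oxygen-sensing hydroxylase, was higher than in each other line, at 2499.6 and 2552 against 674 to 1250.2 (1.39 ± 0.04). Ndrg1 (-1.37) and Vldlr (-1.84) were lower. The 5 other probe sets of Vldlr ran from -1.84 to -0.27, and Ndrg1 differed by 0.01 from M2 and was -0.84 and not called without M3. None of 23 metallothionein and antioxidant genes was called, with 10 higher and 9 lower at an unadjusted p under 0.05 (limma).

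Few markers of other cell types were called. In lists of 8 to 18 genes, few calls are also what the share of all genes called, 4.63%, would give. The called counts alone thus say little about such cells. For their counts at an unadjusted p, the background is 3782 genes higher and 3737 lower of 14361 (limma). None of 18 leukocyte and macrophage markers was called, with 3 higher and 2 lower at an unadjusted p under 0.05, and Ptprc (CD45) was at 4.41 and 6.82 in M4. The summed signal of these markers was 1359.7 to 1397 in M4 and 967 to 1255 in the other M lines, against 7367 to 7799 in E. None was called of 10 endothelial and pericyte markers (0 higher and 1 lower at an unadjusted p under 0.05), of 9 skeletal muscle markers (0 and 1) or of 10 chondrocyte and osteoblast markers (3 and 2). Of 8 adipocyte markers Lpl (lipoprotein lipase) was higher, at 329 and 389.8 in M4 against 1.71 to 20.1 (3.36). It passed the filter only through the M4 arrays, so no p is given. Of 13 neural and neural crest markers Mitf was higher, at 502 and 501 against 189.7 to 243 (1.10). Its difference was 0.83 and not called under the deposited scaling, and 0.69 by its other probe set. The list as a whole went the other way, with a median difference of -0.25. At an unadjusted p under 0.05 (limma), 1 of the 13 was higher and 5 were lower. The part of contaminating cells in any single difference was not tested.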

How the data were processed

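RNA of 5 lines was hybridised to 10 one-colour oligonucleotide arrays, 2 per line. The deposited values are linear intensity per probe set, made with GCOS 1.3 per the submitters' processing notes, and the sources used here do not give their scaling. After quantile normalisation of all 10 arrays, limma 3.58.1 (R 4.3.3; lmFit, then eBayes with trend) fitted 1 mean per line to log2(value + 32), with E contributing to the estimate of the spread only. Probe sets above the 40th percentile on at least 2 of the 8 M arrays were kept, and each gene was read from the kept probe set that was brightest over those arrays. The platform annotation gave 34945 probe sets 1 gene symbol, 932 several and 9160 none, and 64 were controls. Of those with 1 symbol 34741 were matched to RefSeq, and 14361 genes were tested. A call needed an adjusted p under 0.05 (Benjamini-Hochberg) and a 2-fold difference. The small spread between the 2 arrays of a line made 6773 genes (47.2%) pass on p alone, so the fold minimum set most calls. Arrays give no read depth, so their number limits the precision.

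The fit was tested on simulated data. The named genes were U90926, Ifitm1, Thbs2, 15 fixed epithelial and mesenchymal genes, the 12 highest and 12 lowest changes among genes called against each line, and up to 4 called genes per list; other genes were named after their values were seen. The comparison and the 32 gene lists (787 symbols, 652 genes tested) were chosen with earlier results of these data known. Alternatives covered scaling, pseudocount, dim probe sets, probe set choice, fold minimum, prior, a replicate block, single arrays, whole lines and line means. The replicate numbers did not pair arrays: correlations of deviations between same-numbered M arrays were -0.024 to 0.020, with 0 of 6 above 0.1. Gene coordinates other than the promoter windows were not used here, since no genome build is given for the values.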

Additional observations from a re-analysis of the deposited data

How the results depend on the processing

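Of 94 called genes that the text names by rule, 58 kept their call and direction in every alternative other than the fit to line means, and 36 lost it in at least one. 88 of the 94 were not called by the fit to line means, whose count of 11 stands against 665. Krt8 (-0.37) and Efemp1 (0.15) reversed without line M1. Under the deposited scaling the counts were 226 higher and 588 lower in place of 356 and 309, with 928 against M2 in place of 609 and 4 on line means in place of 11. With median centring 492 were lower and line means gave 4. The line-means count was 4 with a pseudocount of 16, 57 with values below 64 set to 64, 3 with no filter on dim probe sets, 2 with a filter at the 60th percentile, 4 without a trend in the prior, 3 without line M3 and 4 to 12 with single arrays left out. Without line M2 it was 0 (limma), with 334 genes higher and 226 lower at an unadjusted p under 0.05. With no fold minimum the counts were 6773 for the mean of the other lines (3389 higher and 3384 lower), 6214 against M1, 5670 against M2, 7248 against M3, 2333 against each of the 3, and 4265 for M4 arrays outside the range of the others. The count outside that range was 190, and 290 without line M1 and 318 without line M2. The total count stayed within 1.5 times of 665 in the other alternatives, with 864 at a pseudocount of 16, 470 at 64 and 519 with probe sets averaged. With the replicate number as a block 665 genes were called, 356 higher and 309 lower, as without it, and arrays with the same number did not deviate together. List medians changed sign under a scaling alternative in 13 of 32 lists, among them the collagens, matricellular proteins, proteases, chemokines, cytokines and TGF-beta and BMP genes. The cause of these changes was not tested. Genes near the background of the arrays have differences that depend on the pseudocount.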

Other observations

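Genes outside the lists also set M4 apart. They were picked after their values were seen, each was called against M1, M2 and M3 singly, and no theme is drawn from them. S100a8, a subunit of the neutrophil protein calprotectin, was at 10062 on both M4 arrays and 234 to 3546 in the 6 other M arrays (3.65 ± 0.07). Hsd11b1, the enzyme that regenerates active glucocorticoid, was at 1955 and 1991 against 64.4 to 358 (3.61 ± 0.08). Csf2rb, the shared receptor chain for GM-CSF, IL-3 and IL-5, was at 609 and 546 against 6.45 to 62.5 (3.41 ± 0.11), while the ligand gene Csf2 was at 5.76 and 4.96 in M4. Receptor chain and ligand thus differed in opposite directions.

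Hp (haptoglobin, which binds free haemoglobin) was at 511 and 476 in M4 against 2.44 to 108, the protease inhibitor gene Serpina3n at 351 and 374 against 21.4 to 55.4 and Lbp, which binds lipopolysaccharide, at 340.2 and 413 against 6.06 to 96.9, with differences of 2.68, 2.46 and 2.35. M4 was above the other M arrays in each. Angpt1, a ligand of the endothelial receptor Tie2, was at 839 and 815 against 85.1 to 126 (2.73 ± 0.10). Rhox5, a homeobox gene of the X-linked Rhox cluster, was at 8955 and 9049.9 against 57.4 to 4388 (3.25). Cox7b2, a testis form of a cytochrome oxidase subunit, was at 676 and 705 against 0.46 to 7.8 (4.37) and passed the filter on dim probe sets only through the M4 arrays, so no p is given.

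Among genes that were lower, Ankrd1, an ankyrin repeat protein of muscle, was at 357 and 393 in M4 against 1191 to 2305 (-2.01). Zfp521, a zinc finger protein of progenitor cells, was at 19.8 and 32.4 against 158 to 299 (-2.23), and the water channel gene Aqp5 at 510.0 and 487 against 1024 to 3036 (-1.98). Sema4d, a semaphorin that signals through plexin-B1, was at 33 and 33.9 against 149 to 268 (-1.92). Both M4 arrays were below every other M array for these 4 genes.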
